A study of Mus musculus with 29 samples.

Results

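Immediate early genes are the genes that cells switch on within minutes of a stimulus, before new protein has to be made. Growth factors, stretch, hormones and injury reach them through kinases such as ERK, p38 and protein kinase A, which activate factors that already sit at their promoters, among them serum response factor and CREB. Their RNAs are short-lived, and many of them encode transcription factors that pass the signal on. In the arterial wall they respond to pressure and stretch of smooth muscle and to injury, and because they respond so fast they can also change between the death of an animal and the moment at which its tissue is preserved.

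The 10 genes described here were chosen by name, as a list of well-known immediate early genes, and their symbols were matched to the Ensembl identifiers of the counts table. All 10 were found among its 56748 genes, and all 10 were among the 12353 genes that were tested, those that exceeded 10 counts in over 10 samples. Fos and Fosb belong to the FOS family, and Jun and Junb to the JUN family, which together form the AP-1 transcription factor. Egr1 and Klf6 encode zinc finger transcription factors, Atf3 a stress-induced repressor of the ATF family, and Nr4a1 an orphan nuclear receptor. Ier2 encodes a nuclear protein of the early response, and Zfp36 encodes tristetraprolin, which binds AU-rich stretches of messenger RNAs and speeds their decay, those of early genes and cytokines included.

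RNA was sequenced from the aortic arch of Ercc1Δ/- mice and their wildtype (WT) littermates, in an F1 hybrid of C57BL6J and FVB. Ercc1Δ/- mice carry a truncated and a null allele of Ercc1, a nuclease subunit of DNA repair, in all of their cells, and they age prematurely. There were 5 WT and 5 Ercc1Δ/- mice of 6 weeks fed ad libitum (AL), 4 WT and 4 Ercc1Δ/- mice of 22 weeks on AL, and 5 WT and 5 Ercc1Δ/- mice of 22 weeks on dietary restriction (DR), which began at week 7 and reached 30% from week 9. The mice were killed with CO2 and perfused before the arch was taken out, and neither the order of dissection nor the time from death to homogenization is given in the sources used here. Another WT sample of 22 weeks on AL (mouse 003), with 400410 counts, was left out, as the study did. Of the 28 mice used, 11 were female and 17 male, and the WT group of 22 weeks on AL held 1 female.

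The samples held 921167 to 9616382 counts on genes, with a median of 3256708, and replicates differed by more than sampling noise. Depth went with genotype at 22 weeks, with 1294980 to 3855444 counts in Ercc1Δ/- and 3903589 to 9616382 in WT mice on AL, and 921167 to 2572523 against 2660422 to 6124471 on DR. The mitochondrial share was 5.37% to 5.96% in Ercc1Δ/- and 2.47% to 3.72% in WT mice at 22 weeks on AL, while both measures overlapped between the genotypes at 6 weeks. With every library thinned to 921167 counts, Fosb and Klf6 passed at 6 weeks as in the full counts, and none of the 10 genes in the other comparisons. Ercc1 was lower in Ercc1Δ/- mice at each age and diet, with 31.2 to 56.3 normalized counts against 52.2 to 136 in WT at 6 weeks, 54.1 to 69.7 against 108 to 127 at 22 weeks on AL and 28.2 to 78.7 against 94.2 to 132 on DR. Normalized counts are counts scaled to a common library of 3703241. The 6 smooth muscle markers, which define the main cell of this tissue, were detected in all mice, with summed normalized counts from 65470 to 164200. In whole tissue, fewer cells of a type and less RNA per cell cannot be told apart.

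The promoters of Fos, Fosb, Jun and Klf6 are shown because these genes differed most clearly between groups in at least 1 of the measures below. They were read from GRCm39, the build of the counts table, from 250 bases before to 50 bases after the start of the canonical transcript, 5′ to 3′ on the strand of the gene. Fos lies at chr12:85520408-85520707 (plus strand), Fosb at chr7:19043927-19044226 (minus), Jun at chr4:94940410-94940709 (minus) and Klf6 at chr13:5911231-5911530 (plus). Capitals mark the TATA box TATAAA, the core TGACG of the site bound by CREB and ATF proteins, and TGACATCA, a site of the JUN and ATF type, on either strand.
Fos: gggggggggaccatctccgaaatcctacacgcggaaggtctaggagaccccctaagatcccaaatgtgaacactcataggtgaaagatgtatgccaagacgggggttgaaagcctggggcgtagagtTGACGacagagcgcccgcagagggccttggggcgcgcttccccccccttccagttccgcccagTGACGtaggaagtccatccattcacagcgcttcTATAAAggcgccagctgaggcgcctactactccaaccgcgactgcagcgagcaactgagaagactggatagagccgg
Fosb: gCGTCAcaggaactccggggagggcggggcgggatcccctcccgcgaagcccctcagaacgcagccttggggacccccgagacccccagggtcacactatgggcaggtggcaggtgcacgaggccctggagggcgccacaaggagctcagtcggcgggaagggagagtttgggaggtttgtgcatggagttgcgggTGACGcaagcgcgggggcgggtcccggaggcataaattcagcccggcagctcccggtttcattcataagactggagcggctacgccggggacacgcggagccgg
Jun: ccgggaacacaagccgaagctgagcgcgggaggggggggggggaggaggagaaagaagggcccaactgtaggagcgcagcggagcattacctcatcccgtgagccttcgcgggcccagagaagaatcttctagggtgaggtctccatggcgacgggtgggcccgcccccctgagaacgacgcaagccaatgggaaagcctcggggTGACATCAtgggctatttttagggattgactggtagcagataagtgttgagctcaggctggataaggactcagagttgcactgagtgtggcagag
Klf6: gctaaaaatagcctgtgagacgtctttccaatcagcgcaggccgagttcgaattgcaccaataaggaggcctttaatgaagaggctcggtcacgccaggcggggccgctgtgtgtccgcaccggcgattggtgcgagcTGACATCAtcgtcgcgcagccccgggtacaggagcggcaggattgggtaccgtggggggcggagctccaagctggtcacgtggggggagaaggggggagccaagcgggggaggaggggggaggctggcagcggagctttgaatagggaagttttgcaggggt

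The TGACG core was found in 7 of the 10 promoters, those of Junb, Fos, Fosb, Egr1, Atf3, Ier2 and Nr4a1, and in 22.6% of 21770 promoters of protein-coding genes of the same length. The full cyclic AMP response element TGACGTCA, which contains that core on both strands, was found only in the promoter of Ier2, and in 2.44% of all promoters. TGACATCA was found in Jun and Klf6 and in 3.09% of all promoters, and TATAAA in Junb, Fos and Nr4a1 and in 13.2%. The letters GGGCGG were in 7 of the 10 promoters and in 42.5% of all promoters. The AP-1 site TGACTCA, the EGR site GCGTGGGCG and the CArG box, which serum response factor binds, were in none of the 10 windows and in 4.7%, 0.753% and 1.54% of all promoters. When the window was lengthened to 500 bases before the start, a CArG box (capitals, with 10 bases on each side) was found 303 bases before the start of Fos and 266 bases before the start of Fosb, and in no other of the 10 genes, against 2.9% of all promoters.
Fos: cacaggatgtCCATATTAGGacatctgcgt
Fosb: tggccgagctCCTTATATGGctaattgcgt

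These letters are matches only, the TGACG core and TGACATCA were added after the sequences had been read, and binding was not measured.

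Per kilobase of exon, over the 28 mice, Jun had the highest mean level, 236 normalized counts per kilobase, followed by Klf6 with 175, Junb with 105, Ier2 with 102, Zfp36 with 91.5, Egr1 with 82.2, Fos with 77.2, Atf3 with 50.9 and Nr4a1 with 29.2. Fosb was lowest, at 7.81. The length used is that of all exons of all annotated transcripts of a gene, 10903 bases for Nr4a1, and the order depends on it. Without this division, Nr4a1 had a mean of 318 normalized counts, Zfp36 320 and Junb 251, and Fosb was again lowest, at 48.8. The order is given without a test, and the counts of Fosb went down to 3 in a library.

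**Figure D1:**
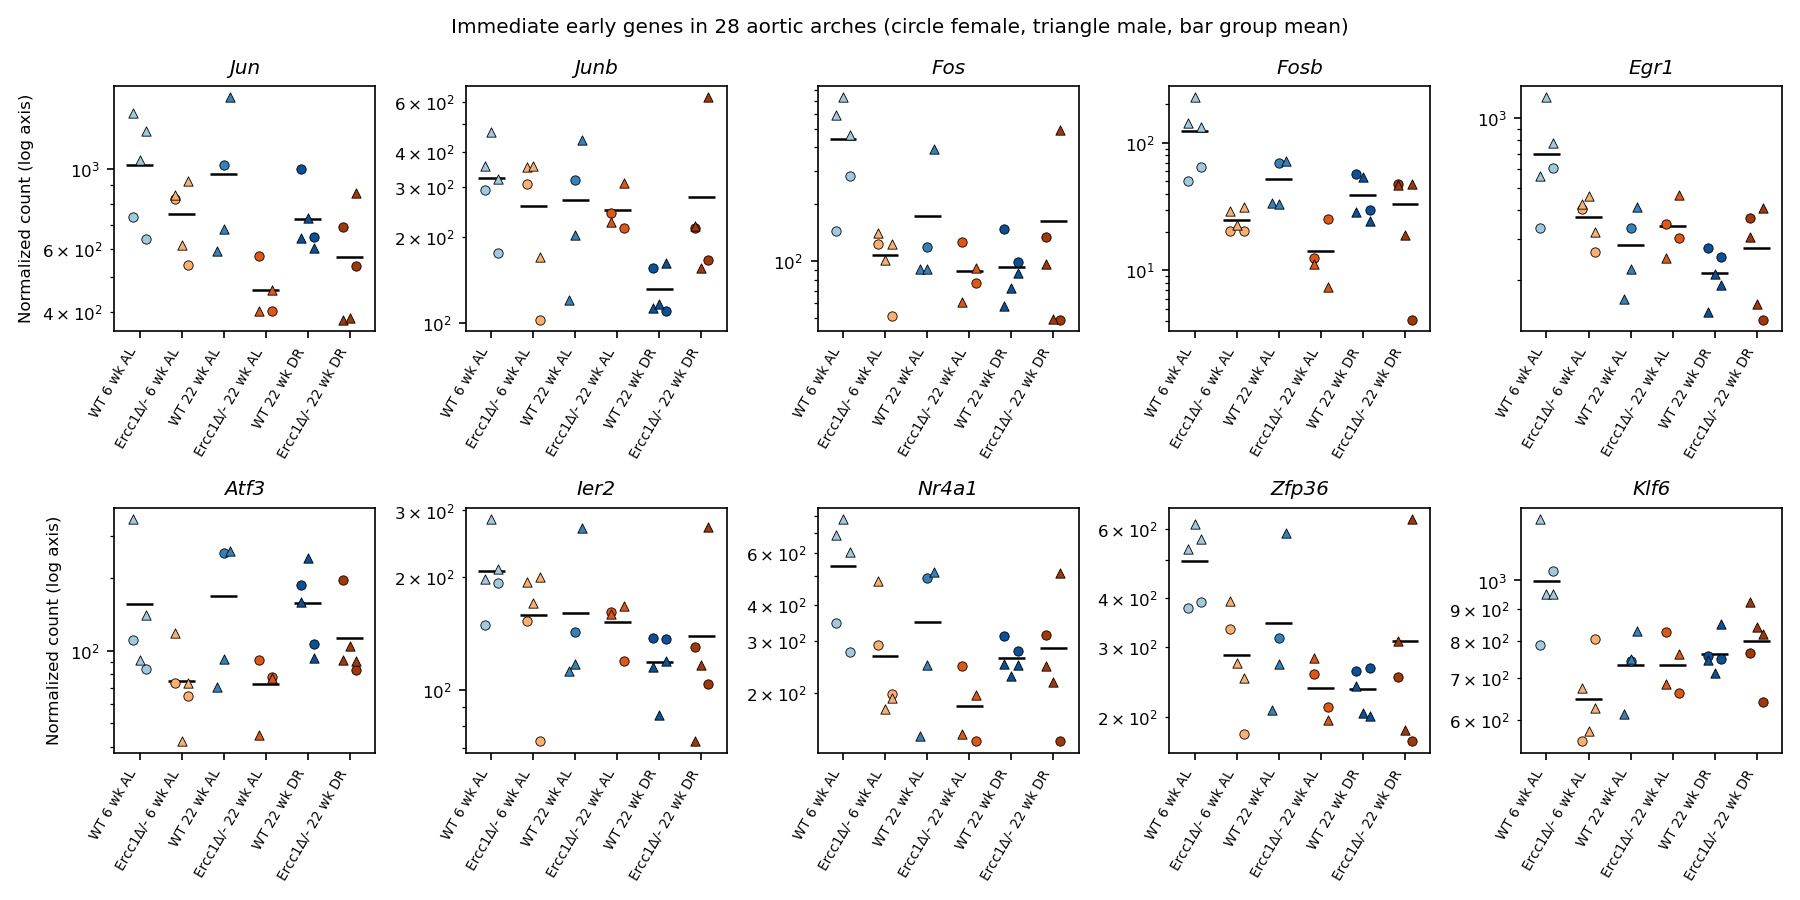
Normalized count (log axis) of each of the 10 immediate early genes in each of 28 mice, by group, with circles for females, triangles for males and a bar for the group mean. WT mice of 6 weeks had the highest mean of the 6 groups for Jun, Junb, Fos, Fosb, Egr1, Ier2, Nr4a1, Zfp36 and Klf6, and for Atf3 WT mice of 22 weeks on AL did.

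The first question was whether immediate early genes differed between Ercc1Δ/- and WT aorta at 6 weeks. All 10 were lower in the Ercc1Δ/- aorta, with log2 fold changes from -2.22 to -0.32 and a median of -0.80, whereas the median of all genes tested was 0.02 and 54.5% of them were higher. The 10 genes varied together from mouse to mouse, as given below, so that their directions do not count as independent results. Fosb and Klf6 passed the test, edgeR's quasi-likelihood test with Benjamini-Hochberg adjustment at an adjusted p of at most 0.05 and a change of at least 1.2-fold. That is 2 of 10, where 1.73% of all genes passed in either direction and 1.15% as lower. Those 214 genes became 101 to 218 when 1 mouse was left out. At an unadjusted p under 0.05 there were 7 of the 10 genes and 12.5% of all genes.

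Fosb was the gene with the largest change. Its normalized counts were 50.4, 64.3, 132, 142 and 228 in the 5 WT mice of 6 weeks and 20.2, 20.5, 22.7, 29.2 and 31.3 in the 5 Ercc1Δ/- mice. Every Ercc1Δ/- mouse was below every WT mouse, and the spread between mice was far wider in WT. The log2 fold change was -2.22 (SE 0.40, edgeR adjusted p = 0.0101), or a level 4.64-fold lower, and the two-sided exact permutation test of the means gave p = 0.00794, the smallest that 5 against 5 allows. It rests on 14 to 30 counts per library in the Ercc1Δ/- mice.

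Fos, the classical partner of JUN proteins in AP-1, followed the same order. Its normalized counts were 144, 281, 462, 593 and 736 in WT and 51.7, 102, 123, 124 and 140.4 in Ercc1Δ/- mice, again without overlap. The log2 fold change was -1.89 (SE 0.48), but with this spread the edgeR adjusted p was 0.0701, while DESeq2 gave 0.00215. Fos and Fosb were the 2 of the 10 genes whose ranges did not overlap, which 2.87% of all genes tested also showed.

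Klf6 was the least variable of the 10 genes. Its normalized counts were 790.4, 952, 953, 1036 and 1255 in WT and 554, 575, 627, 674 and 805 in Ercc1Δ/- mice, so that only the highest Ercc1Δ/- mouse, 023, reached the lowest WT mouse, 024. The log2 fold change was -0.61 (SE 0.12, edgeR adjusted p = 0.0104), and the exact permutation test gave p = 0.0159.

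Zfp36 had 378 to 616 normalized counts in WT, with a median of 531, and 181 to 394 in Ercc1Δ/- mice, with a median of 274. Only the highest Ercc1Δ/- value lay within the WT range. It did not pass in edgeR (log2 fold change -0.75, SE 0.26, adjusted p = 0.20), whereas DESeq2 called it with an adjusted p of 0.0354. Egr1 had 703 ± 334 (SD, n = 5) in WT and 376 ± 80.4 in Ercc1Δ/- mice, a log2 fold change of -0.84 (SE 0.32). Nr4a1 differed by -0.97 (SE 0.41) and Atf3 by -1.12 (SE 0.49) on the log2 scale, with adjusted p-values of 0.340 and 0.368. Jun, Junb and Ier2 differed by -0.43 (SE 0.28), -0.32 (SE 0.37) and -0.35 (SE 0.25), and none of these had an unadjusted p under 0.05. Their 95% intervals ran from -1.02 to 0.16 for Jun, from -1.11 to 0.48 for Junb and from -0.87 to 0.18 for Ier2.

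**Figure D2:**
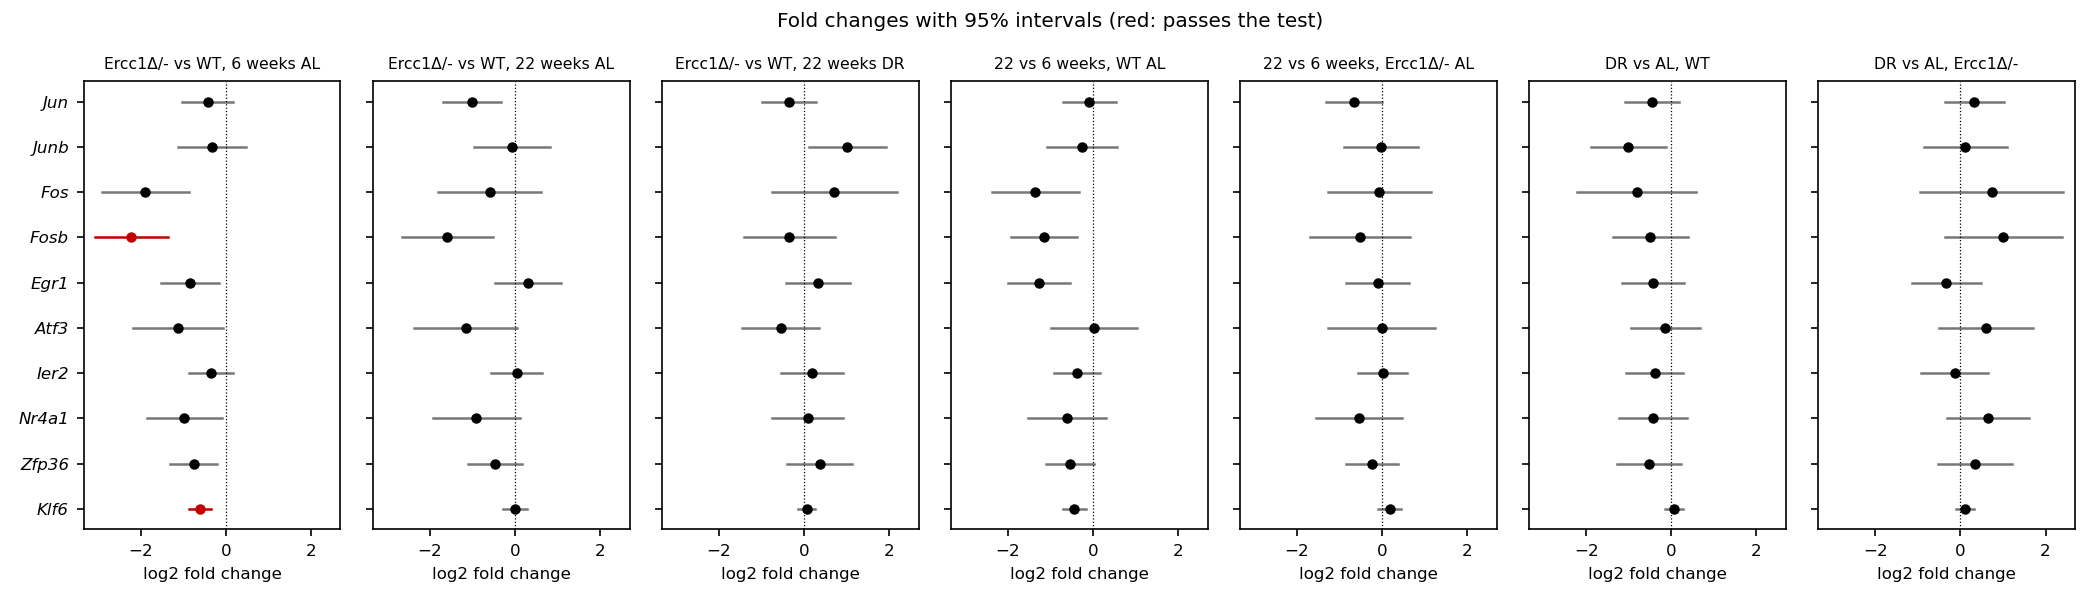
Log2 fold change (points) with 95% interval (lines) of the 10 genes in the 7 comparisons of groups, from edgeR, with genes that passed the test in red. At 6 weeks all 10 points lie below 0 and Fosb and Klf6 passed, and in none of the other 6 comparisons did a gene pass.

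At 22 weeks on AL, Jun and Fosb were lower in every Ercc1Δ/- mouse than in any WT mouse, but none of the 10 genes passed the edgeR test, where 11.5% of all genes did. At an unadjusted p under 0.05 there were 2 of the 10 and 25.5% of all genes, and DESeq2 called 2 of the 10 and 1685 of the 12353. Jun had 593, 681, 1023 and 1581 normalized counts in the 4 WT mice and 402, 404, 463 and 575 in the 4 Ercc1Δ/- mice. The highest WT value was that of mouse 020, and the ranges did not overlap. The log2 fold change was -1.0 (SE 0.32), with an edgeR adjusted p of 0.0587, and DESeq2 gave an adjusted p of 0.00422.

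Fosb had 33.0, 33.9, 70.0 and 72.6 normalized counts in WT and 7.46, 11.2, 12.6 and 25.2 in Ercc1Δ/- mice at that age. The ranges did not overlap either, and 1 of the Ercc1Δ/- libraries held only 3 counts of the gene. The log2 fold change was -1.59 (SE 0.51), with an edgeR adjusted p of 0.0538 and a DESeq2 adjusted p of 0.00331. For Jun and Fosb the exact permutation test gave p = 0.0286, the smallest that 4 against 4 allows. Ranges that do not overlap were common here, at 18.6% of all genes, so that 2 of 10 is close to the background.

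The other 8 genes were not separated at 22 weeks on AL. Atf3 had a log2 fold change of -1.16 (SE 0.56) and Nr4a1 of -0.90 (SE 0.48), with intervals that held 0. Klf6, which passed at 6 weeks, had 734 ± 91.0 (SD, n = 4) normalized counts in WT and 734 ± 76.7 (SD, n = 4) in Ercc1Δ/- mice. Its log2 fold change was 0.00 with a 95% interval from -0.29 to 0.29, which does not reach the -0.61 seen at 6 weeks. Egr1 was also not lower, at 285 ± 111 in WT and 341 ± 92.1 in Ercc1Δ/- mice.

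With age, 9 of the 10 genes were lower at 22 than at 6 weeks in WT on AL, where 49.8% of all genes were higher. The median log2 fold change of the 10 was -0.49. None passed in edgeR, where 0.219% of all genes did, 4 had an unadjusted p under 0.05 against 8.31% of all genes, and DESeq2 called 1, Egr1. Egr1 went from 336, 564, 606, 777 and 1229.8 normalized counts at 6 weeks to 166, 224, 337 and 413 at 22 weeks, and the groups overlapped only by mouse 024 of the young mice, at 336. Its log2 fold change was -1.26 (SE 0.34), with an adjusted p of 0.213 in edgeR and 0.0247 in DESeq2. The exact permutation test gave p = 0.0476 for Egr1 and p = 0.032 for Klf6, and a p under 0.05 for no other of the 10. Fos, Fosb and Klf6 differed by -1.36 (SE 0.47), -1.15 (SE 0.37) and -0.44 (SE 0.13) on the log2 scale. The ranges of the 2 ages overlapped in all 10 genes, where 3.85% of all genes had ranges that did not.

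In Ercc1Δ/- mice on AL, the 10 genes had a median of -0.09 on the log2 scale between 6 and 22 weeks. None passed in edgeR or DESeq2, where 4.53% of all genes passed in edgeR, 1 had an unadjusted p under 0.05 against 17.4% of all genes, and in none did the ranges stay apart, against 6.78%. That gene was Jun, from 542 to 927 normalized counts at 6 weeks to 402 to 575 at 22 weeks. Its log2 fold change was -0.66 (SE 0.30, edgeR adjusted p = 0.277), and the exact permutation test gave p = 0.032. The interaction of genotype and age compares the 2 age effects directly. None of the 10 genes passed it in edgeR or DESeq2, where 0.801% of all genes passed in edgeR. Klf6 (0.61, SE 0.18, edgeR adjusted p = 0.150) and Egr1 (1.15, SE 0.48, edgeR adjusted p = 0.391) had an unadjusted p under 0.05, as 11.1% of all genes did. So the absence of a Klf6 difference at 22 weeks is not shown to differ from its presence at 6 weeks.

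On DR the spread between mice was wide in the Ercc1Δ/- group and narrow in the WT group. Averaged over the 10 genes, log2 CPM ranged over 1.61 in the former and 0.52 in the latter, against 1.46 in WT mice of 22 weeks on AL. In WT mice, 9 of 10 genes were lower on DR than on AL, with a median of -0.45 on the log2 scale, while 52.4% of all genes were higher. Mouse 020 was the highest of the AL group in all 10. None of the 10 passed in edgeR or DESeq2, against 1.17% of all genes in edgeR. Junb alone had an unadjusted p under 0.05, against 11.9% of all genes, and no gene of the 10 had ranges that stayed apart, against 5.14%. Its normalized counts were 120.2, 203, 318 and 439.9 on AL and 110.3, 113, 116, 156 and 162 on DR, which overlap. The log2 fold change of Junb was -1.01 (SE 0.41, edgeR adjusted p = 0.333). The exact permutation test gave p = 0.0476 for Junb, and a p under 0.05 for no other of the 10. Reads of Junb may include some of Prdx2, a gene on the other strand that shares 1238 bases with it, since whether counting used the strand is not given in the sources used here.

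In Ercc1Δ/- mice, 8 of 10 genes were higher on DR, with a median of 0.34 on the log2 scale, as were 50.1% of all genes. None of the 10 passed in edgeR or DESeq2 or had an unadjusted edgeR p under 0.05, where 1.72% of all genes passed in edgeR and 15.0% had such a p. The exact permutation test gave p = 0.0476 for Atf3, and a p under 0.05 for no other of the 10. The ranges overlapped in all 10, and did not in 5.02% of all genes. Fos had 61.4, 76.6, 92.0 and 126 normalized counts on AL and 49.1, 49.5, 96.4, 134 and 492 on DR. The DR group thus held the lowest values and the highest, the last from mouse 016. Between the genotypes on DR, none of the 10 passed in edgeR or DESeq2, where 12.9% of all genes passed in edgeR, and the ranges overlapped in all 10, but not in 8.27% of all genes. Junb alone had an unadjusted edgeR p under 0.05, as 26.1% of all genes did (log2 fold change 1.02, SE 0.42, edgeR adjusted p = 0.140). It had 156, 166, 216, 219 and 624 normalized counts in Ercc1Δ/- mice and 110 to 162 in WT mice. The exact permutation test gave p = 0.0159 for Junb, and a p under 0.05 for no other of the 10. Mouse 016, at 624, was left out together with mouse 020, which is in the fit but not in this comparison. The log2 fold change of Junb was then 0.48, and that of Fos went from 0.71 to -0.33. Over 22 alternative settings the sign of Junb changed in 0, and that of Fos in 4.

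The interaction of genotype and diet was positive for all 10 genes, with a median of 0.83, and for 47.9% of all genes. None of the 10 passed in edgeR or DESeq2 or had an unadjusted p under 0.05, where 0.089% of all genes passed in edgeR and 8.52% had such a p. High values in mouse 020 (WT on AL) and in mouse 016 (Ercc1Δ/- on DR) both raise this contrast. Over the alternative settings 16 of 290 values were negative, those of Fos, Egr1, Ier2 and Klf6. The standard errors of the interaction had a median of 0.56 over the 10 genes and 0.23 over all genes, so that changes of this size could not be told from the spread. Sex was compared over all 28 mice, and none of the 10 genes passed in edgeR or DESeq2 or had an unadjusted p under 0.05, where 0.178% of all genes passed in edgeR and 7.46% had such a p. The largest value was that of Fos, 0.50 higher in males on the log2 scale (SE 0.37).

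How much of the variation lay between mice of 1 group was measured next. The SD within groups on the log2 scale was 0.87 for Fos, 0.79 for Fosb, 0.65 for Atf3, 0.62 for Junb, 0.60 for Nr4a1, 0.54 for Egr1, 0.48 for Ier2, 0.47 for Zfp36 and 0.44 for Jun, while the median of all genes was 0.26. Klf6 was the exception, at 0.19. Fos exceeded 98.6% of all genes, and 99.8% of the 500 genes nearest to it in level. Klf6 exceeded 25.5% of all genes, but 68.7% of the 500 genes nearest to it in level. The share of a gene's variance that lay between the 6 groups was 61.4% for Fosb, 57.2% for Klf6 and 55.6% for Egr1. It was lowest for Ier2, at 26.2%, and the median of all genes was 29.6%, which the other 9 genes exceeded.

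**Figure D3:**
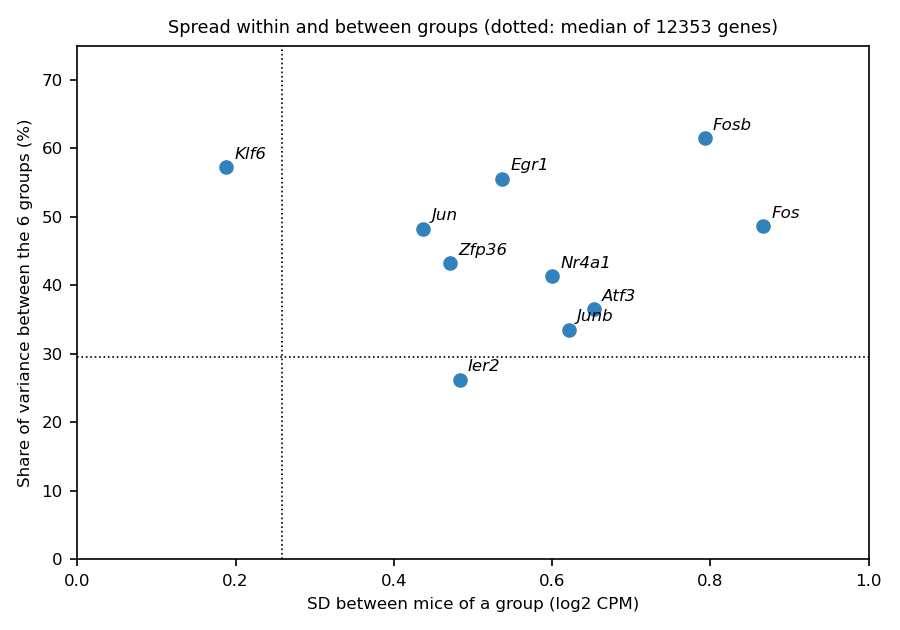
Share of the variance of log2 CPM between the 6 groups (%) against the SD between mice of a group (log2), 1 point per immediate early gene, with dotted lines at the medians of 12353 genes. Fos and Fosb lie far to the right, Klf6 is the only gene left of the vertical line, and Ier2 is the only gene below the horizontal line.

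The genes went up and down together from mouse to mouse. With group means removed, all 45 pairs of the 10 genes correlated positively over the 28 mice, with a median Pearson's r of 0.61 and a range from 0.028 to 0.865. After adjustment over the 45 pairs, 28 passed in a permutation test of Pearson's r within groups and 30 in that of Spearman's rho. The highest was Fos with Zfp36 (r = 0.865, permutation adjusted p = 0.000562, and rho = 0.765, permutation adjusted p = 0.00122), with r = 0.752 when the 2 mice farthest from the median of Fos, 016 and 020, were left out. Without the 2 farthest mice, the median r over the 45 pairs was 0.546. Klf6 passed with none of the other 9 genes by Pearson's r, its highest r being 0.448.

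**Figure D4:**
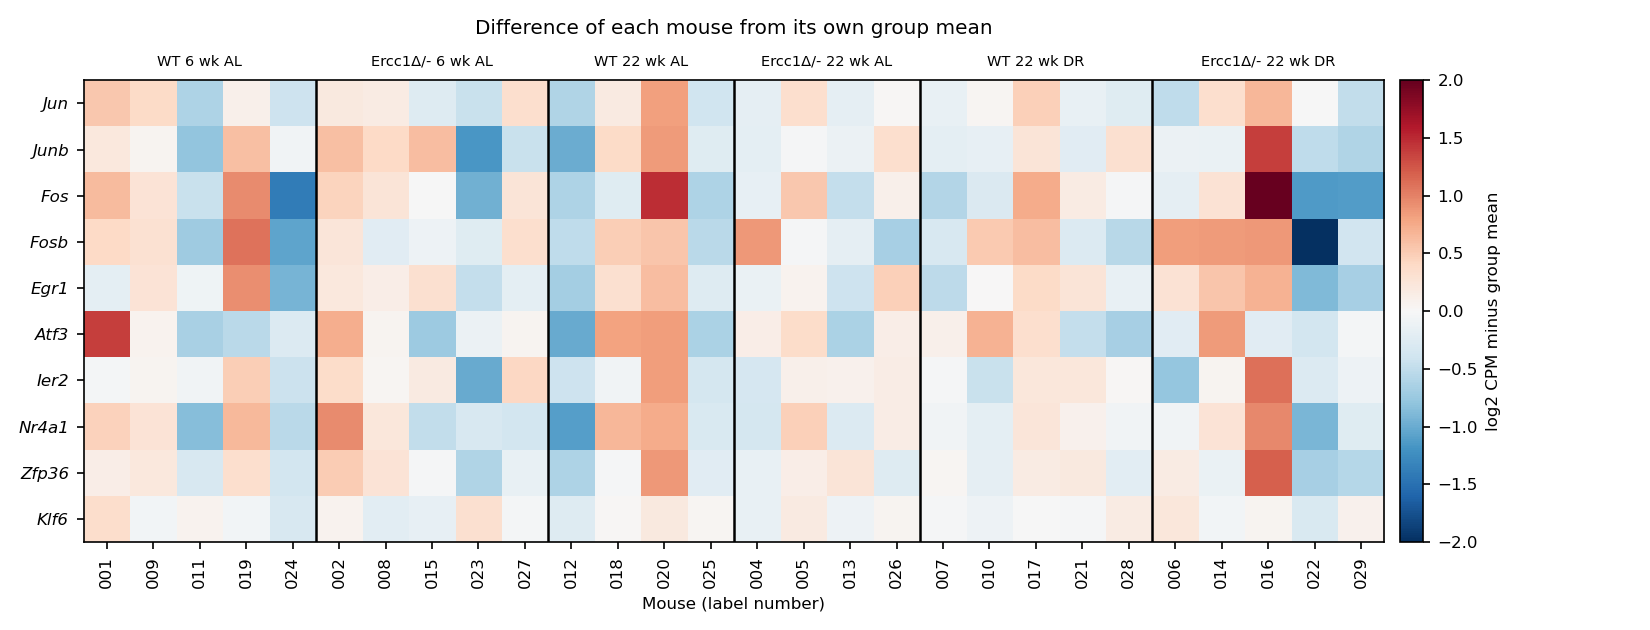
Log2 CPM of each gene (rows) in each mouse (columns, by label number and group) minus the mean of the mouse's own group, with red for higher and blue for lower. Mice 020 and 016 are red, and mice 012, 022 and 023 blue, for most genes, and the row of Klf6 is pale.

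Single mice stood out for most genes at once. Mouse 020, a WT male of 22 weeks on AL, was the highest of its group in all 10 genes, and mouse 012 of the same group the lowest in 8. Mouse 016, an Ercc1Δ/- male on DR, was the highest of its group in 8 genes, and mouse 022 of that group the lowest in 7. Mouse 017 was the highest of the WT mice on DR in 6 genes, mouse 019 the highest WT mouse of 6 weeks in 7, and mouse 023 the lowest Ercc1Δ/- mouse of 6 weeks in 7. Averaged over the 10 genes, log2 CPM ranged over 1.61 between the 5 Ercc1Δ/- mice on DR, 1.46 between the 4 WT mice of 22 weeks on AL and 0.418 between the 4 Ercc1Δ/- mice of 22 weeks on AL. The group means of this average were 6.66 and 5.73 at 6 weeks in WT and Ercc1Δ/- mice, 6.03 and 5.50 at 22 weeks on AL, and 5.68 and 5.72 on DR. The range between mice of a group was thus wider than the widest gap between group means in the 2 groups that hold mice 020 and 016.

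Measures of library quality and tissue makeup were set beside the genes, with group means removed, in 70 pairs of 10 genes and 7 measures. These were total counts, the mitochondrial share, the share of reads on no gene, and the heat shock, fat, endothelial and fibroblast scores. Macrophage, neutrophil, lymphocyte, smooth muscle and cardiac muscle markers were not among them. The pair of Atf3 and the share of reads on no gene passed (r = -0.633, permutation adjusted p = 0.0357, and rho = -0.648, permutation adjusted p = 0.0378, with r = -0.595 without the 2 farthest mice). None of the other 69 passed. The r with total counts ran from -0.42 to 0.22 over the 10 genes, with the mitochondrial share from -0.27 to 0.32, with the fat score from -0.37 to 0.20 and with the endothelial score from -0.26 to 0.38. Mouse 016 had a summed macrophage marker count of 4084, the highest of all mice, against 891 to 1238 in the other 4 mice of its group, 71.95 for the neutrophil markers against 5.45 to 11.8, and 45.57 for the lymphocyte markers against 1.91 to 7.06. The part of this in its early gene values was not tested. Mouse 020, highest in all 10 genes, had 973, against 639 to 689 in the other 3.

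The genes outside the list whose level followed the average of the 10 genes most closely, with group means removed, were Btg2 (r = 0.896), an antiproliferative early gene, and Dusp1 (r = 0.879), the phosphatase that switches off p38 and JNK. Klf2, Rhob, Gm49839, Errfi1, Rgs2, Cryzl2, Dazap2 and Ier3 followed, with r from 0.746 down to 0.683. They were picked for this likeness, so no test is given. Over 57 further early genes, 42 had a positive r and the median was 0.313, whereas over all other genes tested the median was 0.001.

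Heat shock genes, which encode chaperones and are also induced by stress within minutes, did not follow the 10 genes from mouse to mouse within groups. All 13 were lower in Ercc1Δ/- mice at each age and diet, a direction that all 10 immediate early genes shared at 6 weeks only. At 6 weeks 1 of 13 passed, Hspb1 (log2 fold change -1.13), at 22 weeks on AL 11 of 13, led by Hsp90ab1 (-0.66), Hsp90aa1 (-0.94) and Hspb1 (-1.46), and on DR 12 of 13. Of all genes tested, 1.73% passed at 6 weeks, 11.5% at 22 weeks on AL and 12.9% on DR, in either direction. Their summed normalized counts were 19690 to 24220 in WT and 15130 to 17840 in Ercc1Δ/- mice at 6 weeks, 27090 to 33990 against 14200 to 19030 at 22 weeks on AL, and 24110 to 37700 against 14380 to 20220 on DR. Within groups the r of the heat shock score with the 10 genes ran from -0.32 (Egr1) to 0.565 (Atf3, permutation adjusted p = 0.166, rho = 0.521, permutation adjusted p = 0.292, and r = 0.506 without the 2 farthest mice), and none passed. Of the 13, 4 had a positive r with the average of the 10 genes, with a median of -0.095. Mice 020 and 012, the highest and the lowest of their group for most immediate early genes, had heat shock sums of 30430 and 31290. Mice 016 and 022, the highest and the lowest of theirs for most of these genes, had 14380, the lowest sum of that group, and 18930.

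**Figure D5:**
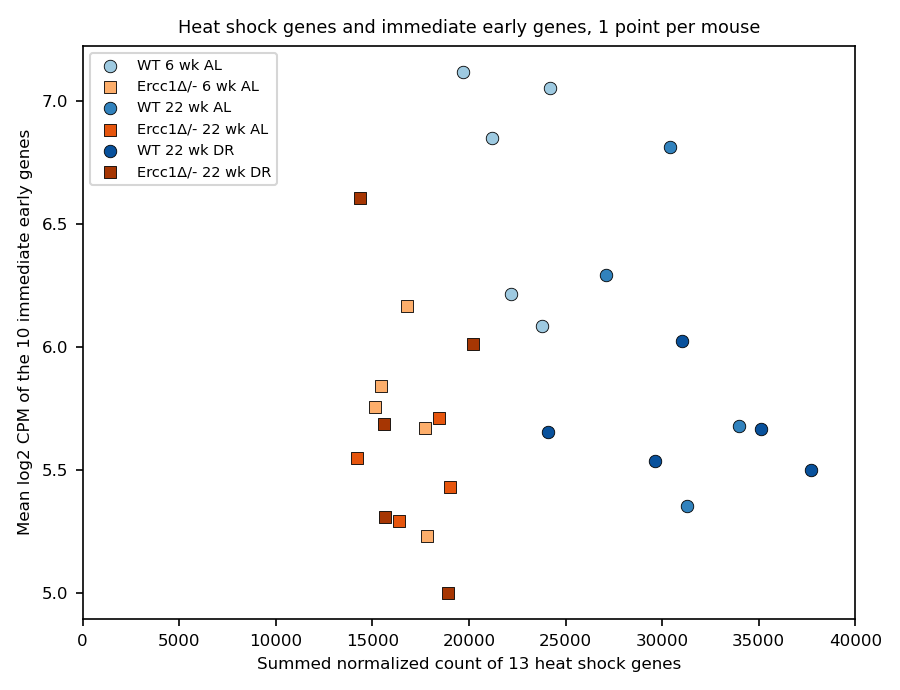
Mean log2 CPM of the 10 immediate early genes against the summed normalized count of 13 heat shock genes, 1 point per mouse, with circles for WT and squares for Ercc1Δ/- mice. Along the horizontal axis the genotypes do not overlap within any age and diet, while along the vertical axis mice of both genotypes are mixed at 22 weeks.

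Because the heat shock score separated the genotypes at 6 weeks without overlap, a fit with that score as a covariate could not keep them apart, and in that fit neither Fosb (log2 fold change -2.39, edgeR adjusted p = 0.0721) nor Klf6 (-0.36, edgeR adjusted p = 0.398) passed. A difference of genotype and a difference that goes with the heat shock score cannot be told apart there. With the mean of the 57 further early genes as a covariate, a score that overlapped between the genotypes at each age and diet, Fosb (-2.17, edgeR adjusted p = 0.0147) and Klf6 (-0.58, edgeR adjusted p = 0.012) passed at 6 weeks. That score carried 64.7% of the variance within groups of Nr4a1, 53.3% of Junb, 50.1% of Zfp36 and 37.7% of Jun, and 11.8% of Klf6.

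With the same covariate Jun passed in 3 comparisons in which it had not passed before. It was lower in Ercc1Δ/- mice at 22 weeks on AL (log2 fold change -1.14, edgeR adjusted p = 0.00934) and on DR (-0.82, edgeR adjusted p = 0.00331), and lower at 22 than at 6 weeks in Ercc1Δ/- mice (-0.93, edgeR adjusted p = 0.0479). At 6 weeks Jun was at -0.28 (edgeR adjusted p = 0.667). On DR, Jun passed when mice 016 and 020 were left out (-0.60, edgeR adjusted p = 0.00959). These mice were chosen after their high values of the early genes had been seen. Leaving out the highest Ercc1Δ/- mouse for Jun, 016, must lower that group, so this result is no further support. On AL the same omission moved Jun to -0.72 with an edgeR adjusted p of 0.132. On DR the normalized counts of Jun were 604, 645, 646, 731 and 996 in WT mice. In Ercc1Δ/- mice they were 381, 387, 537, 689 and 859, the last from mouse 016. Several of the 57 genes changed with genotype themselves, so that the covariate is not free of it.

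These 57 genes did not share 1 direction. At 6 weeks Plk2, a kinase induced by p53, rose in Ercc1Δ/- mice (log2 fold change 1.13), and Hbegf, an EGF receptor ligand (-0.97), Ccn2 (-0.88) and Fosl2, another FOS family member (-0.53), fell. At 22 weeks on AL 7 rose, among them Gadd45a (1.58), a growth arrest gene induced by DNA damage, Plk2 (1.11), Arc (1.41), Thbs1 (1.45) and Trib1 (0.63), and 3 fell, namely Nab2 (-0.64), a corepressor of EGR factors, Gadd45b (-0.50) and Fosl2 (-0.47). On DR 11 rose in Ercc1Δ/- against WT mice, among them Plk2, Plk3 (1.18), Myc (1.17), Nfkbiz (0.51) and Tnfaip3 (0.99), and 7 fell, among them Id3 (-0.58), Id2 (-0.70), Hbegf (-0.68), Gadd45b (-0.64) and Ccn1 (-1.16). With age in Ercc1Δ/- mice 3 rose, Socs3 (0.99), Maff (0.59) and Dusp6 (0.69), and Nab2 fell (-0.57), while with DR in Ercc1Δ/- mice Mafk rose (0.46) and Arc fell (-1.75). With age in WT, with DR in WT and with sex, none of the 57 passed in edgeR. Of all genes tested, 1.73% passed between genotypes at 6 weeks, 11.5% at 22 weeks on AL and 12.9% on DR, in either direction. In Ercc1Δ/- mice 4.53% of all genes passed with age and 1.72% with DR.

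Of 24 kinases and regulators that act upstream of immediate early genes, Srf, which encodes serum response factor, was lower in Ercc1Δ/- mice at 22 weeks on AL (log2 fold change -0.65, edgeR adjusted p = 0.00587) and on DR (-0.58, edgeR adjusted p = 0.00321). Rps6ka1, an ERK-activated kinase, was higher at 22 weeks on AL (1.19, edgeR adjusted p = 0.0402). That makes 1 higher and 1 lower of the 24 at 22 weeks on AL, where 11.5% of all genes passed in either direction. On DR it was 1 of the 24, where 12.9% of all genes passed. None of the 24 passed at 6 weeks, where Fosb and Klf6 did. The smooth muscle markers were lower in Ercc1Δ/- mice, with summed normalized counts of 92140 to 123900 against 123600 to 156700 in WT at 6 weeks, and the macrophage markers higher, with 641 to 1558 against 516 to 617. All 6 of each list had that direction, and 1 of each passed, Acta2 and Cd68. The cardiac muscle markers, 5 of 5 higher with none past the edgeR test, summed to 213 to 648 against 79.9 to 309. The part of any of these in the values of Fosb and Klf6 was not tested.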

How the data were processed

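The deposited table held raw counts of UMI-deduplicated read pairs per Ensembl gene in 29 aortic arch samples, 1 mouse each. Per the labels and the methods of the study, the authors made these counts with fastp trimming, STAR 2.7.10a on GRCm39, UMI-tools 1.1.2 and HTSeq 2.0.2. The 5 summary lines of the table, 12.592% to 18.683% of reads, stayed out of all totals. Mouse 003 was left out of the fits.

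Counts were tested with edgeR 4.0.16 (R 4.3.3) after TMM scaling, with a quasi-likelihood test of group and sex, on 12353 genes with over 10 counts in over 10 of the 28 samples. The 18 AL mice entered 1 fit, the 18 mice of 22 weeks another, and all 28 the test of sex. P-values were adjusted over all 12353 genes (Benjamini-Hochberg), and a gene passed at 0.05 or below with a change of 1.2-fold or more, interactions on the adjusted p alone. Intervals are 95%. Single values of the 10 genes were compared with two-sided exact permutation tests of group means, without adjustment and not over all genes. Correlations were taken on log2 CPM (prior count 2) after removing group means, with 100000 permutations within groups and adjustment over 45 pairs or 70 relations. A score is the mean log2 CPM of a list. DESeq2 1.42.0 was an alternative. In counts simulated for these 12353 genes, the edgeR test of genotype at 6 weeks recovered 75 of 100 genes changed 2-fold and 95 of 100 changed 3-fold, with 8 false calls. The changed genes were drawn at random from all tested genes, whose median coefficient of variation between mice, beyond counting noise, was 0.133. It was 0.134 for Klf6, but 0.302 (Jun) to 0.589 (Fos) for the rest of the 10 genes. The recovery of changes in genes as variable as these was not measured.

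Positions and sequences came from GRCm39 with an annotation later than the one behind the counts. The library kit keeps strand, but the strand setting of the counting is not given in the sources used here, so that reads of genes that overlap on opposite strands (Jun with Junos, Junb with Prdx2, Zfp36 with Gm44710) may be shared. The 10 genes and all other lists were chosen with earlier results of these data known. Genes named from other lists are those that passed, and at most 5 in each direction by adjusted p.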

Additional observations from a re-analysis of the deposited data

Results flagged for a closer look

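In 7 of the 60 sets formed by a gene and a group, 1 mouse lay far from the others by Dixon's test. Chance gives about 1 in 20 for independent sets of normally distributed values. The counts were not log-transformed here and the genes vary together, so that 7 of 60 cannot be held against that rate. Mouse 016 was far above the other Ercc1Δ/- mice on DR for Junb (623.6 normalized counts, next 218.8), Fos (491.7, next 133.8) and Ier2 (271.0, next 129.8). In the same group mouse 014 was high for Atf3 (196.7, next 104.8). Mouse 020 was high for Fos among the WT mice of 22 weeks on AL (393.8, next 119.2), and mouse 001 for Atf3 among the WT mice of 6 weeks (353.2, next 140.7). Mouse 004 was low for Ier2 among the Ercc1Δ/- mice of 22 weeks on AL (119.0, next 159.0).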

How the results depend on the processing

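The number of the 10 genes that passed moved with the settings, and so did that of all genes (in brackets, where the reported counts were 214 at 6 weeks and 1419 at 22 weeks on AL). At 6 weeks it was 2 (Fosb and Klf6), and 8 without the filter on low counts (657), 4 with only the compared groups in the fit (124), 4 with DESeq2 (378), 0 with the heat shock score as a covariate (99), and 2 to 3 when 1 mouse was left out, Fos being the third gene without WT mouse 024. Between genotypes at 22 weeks on AL it was 0, and 6 without the filter (2198), 1 with mouse 003 added (Fosb, 1128), 2 without the sex term (1536), 1 with only the compared groups (Fosb, 1601), 1 with all 6 groups in the fit (Jun, 1461), 3 with the score of other early genes as a covariate (Jun, Atf3 and Nr4a1, 1477), 2 with DESeq2 (1685), and 0 to 2 when 1 mouse was left out, with 2 without WT mouse 012 or 025 and 1 without Ercc1Δ/- mouse 005 (Jun) or 004 (Fosb). With age in WT it was 0, and 5 without the filter (349, reported 27) and 1 with DESeq2 (106). With age in Ercc1Δ/- mice it was 0, and 2 without the filter (1018, reported 559) and 1 with the early gene covariate (Jun, 658). For the interaction with age it was 0, and 3 without the filter (475, reported 99) and 0 to 1 when 1 mouse was left out, namely Klf6 without Ercc1Δ/- mouse 023 of 6 weeks. With DR in Ercc1Δ/- mice it was 0, and 1 with the early gene covariate (Nr4a1, log2 fold change 0.65, 263 genes where 212 were reported). Between genotypes on DR it was 0, and 2 with that covariate (Jun, and Nr4a1 at -0.72 where it was 0.09 before, 949 genes where 1595 were reported) and 1 without mice 016 and 020 (Jun, 1230), a setting chosen after seeing the data. For sex it was 0, and 2 without the filter (408, reported 22). Without the filter, the fit over 28033 genes put infinite weight on the common trend of the spread, so that a gene's own spread counted for nothing. For the other settings the cause was not tested.

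Over all alternatives, 149 of 2420 fold changes had another sign than the reported value. With DESeq2 the number of all genes that passed went from 99 to 197 for the interaction with age, from 144 to 228 and from 212 to 348 with DR in WT and Ercc1Δ/- mice, from 11 to 43 for the interaction with diet and from 22 to 52 for sex. With the heat shock covariate it was 139 at 22 weeks on AL and 18 on DR. With 1 mouse left out it was 101 to 218 at 6 weeks (101 without WT mouse 009), 877 to 1365 at 22 weeks on AL, 8 to 29 with age in WT (8 without mouse 025), 313 to 707 with age in Ercc1Δ/- mice, 53 to 124 for the interaction with age, 48 to 190 with DR in WT (48 without mouse 018), 94 to 282 with DR in Ercc1Δ/- mice (94 without mouse 004), 1159 to 1602 between genotypes on DR, 2 to 17 for the interaction with diet and 17 to 44 for sex. The counts of passing correlations, 28 of 45 and 1 of 70, did not move with a prior count of 0.5. No paired analysis was possible because each number in the labels belongs to 1 mouse. Fosb rests on 3 to 30 counts in Ercc1Δ/- libraries.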

Other observations

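Fosb lies 31.9 kb from Ercc1 on chromosome 7, and the genes around the targeted locus were looked at for that reason after the values of Fosb had been seen. Of 9 genes tested within 100 kb of Ercc1, 2 fell in Ercc1Δ/- mice at 6 weeks, Fosb and Ercc2 (log2 fold change -0.55), a helicase subunit of TFIIH. At 22 weeks on AL 4 fell, Ercc2 (-0.90), Vasp (-0.75), an actin regulator, Mark4 (-0.45) and Polr1g (-0.54), and on DR 3 fell, Ercc2 (-0.77), Vasp (-0.81) and Klc3 (-1.35). Of all genes tested, 1.73% passed in either direction at 6 weeks, 11.5% at 22 weeks on AL and 12.9% on DR. Fosb, 1 of the 2 at 6 weeks, was the gene that prompted the look. A difference tied to the locus and one tied to the loss of ERCC1 cannot be told apart for these genes.

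Sex within groups was looked at after the values had been seen, and no test is given. Among the WT mice of 6 weeks, both females were below all 3 males in 7 of the 10 genes, Jun, Junb, Fos, Fosb, Ier2, Nr4a1 and Zfp36, as in 8.43% of all genes tested. Among the WT mice on DR, both females were above all 3 males in 5 of the 10, against 16.5% of all genes. In the other 4 groups such a split in a single direction was seen in 0 to 2 of the 10 genes. The share of all genes was 9.71% to 23.7% for each direction taken alone. The WT group of 22 weeks on AL held 1 female, so that there a split means only that she was the lowest or the highest.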
